A study of Drosophila melanogaster with 12 samples.

Results

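The genes described here are 7 *Drosophila* genes of the septate junction and of basolateral polarity: *mesh*, *Ssk*, *Tsp2A*, *cora*, *dlg1*, *scrib* and *l(2)gl*. They were taken by name from the gene tables of an intestinal RNA-seq study. All 7 were found among the 9981 genes in the tables, and all 7 passed the filter on low values in every comparison.

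Septate junctions seal the space between neighbouring epithelial cells in insects and limit what passes between them, as tight junctions do in vertebrates. In the fly midgut these junctions are of the smooth type, which are built around the membrane proteins Mesh, Snakeskin (Ssk) and Tsp2A. Each of these proteins needs the others to reach the junction, and flies that lack them in the adult gut have a leaky epithelium. Coracle (*cora*) is a FERM-domain protein of the cytoplasmic face of septate junctions, and Discs large (*dlg1*), Scribble (*scrib*) and Lethal giant larvae (*l(2)gl*) form the Scribble module, a set of scaffold proteins that marks the basolateral membrane in many fly epithelia and whose loss causes overgrowth in imaginal discs.

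The study asked how the loss of *dMPC1*, a subunit of the mitochondrial pyruvate carrier, changes gene expression in the adult intestine. In *myo1A > dMPC1-RNAi* animals the *myo1A-GAL4* driver expressed *dMPC1* RNAi in enterocytes, the absorptive cells of the gut, and *myo1A > mCherry-RNAi* animals, with RNAi against a fluorescent protein that flies do not have, were the controls. Both genotypes carried *Tub-GAL80ts*, which held RNAi off until the adult stage, and RNAi was switched on for 7 days in adults 4 to 5 days old. In the other experiment *dMPC1* mutants, transheterozygous for the deletion alleles *dMPC1 1* and *dMPC1 2* in every cell, were compared with precise excision controls, which were homozygous for the clean removal of a *P* element, both as adults 7 to 10 days old. The labels give *w1118* as the strain of all groups. RNA came from whole dissected intestines, several pooled in each replicate of the RNAi experiment, so fewer cells of a type and less RNA per cell cannot be told apart.

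The libraries analysed were *myo1A > dMPC1-RNAi* replicates 1, 2 and 3, *myo1A > mCherry-RNAi* replicates 1 and 3, *dMPC1* mutant replicates 1 and 2 and precise excision replicate 2. They hold between 7362983 and 21918521 reads in genes, and each value is a normalized count, the reads of a gene corrected by the authors for the size of the library. The targeted transcript (*Mpc1*) had 841, 803 and 819 normalized counts in *myo1A > dMPC1-RNAi* intestines, against 3114 and 2936 in *myo1A > mCherry-RNAi* intestines. It had 5.31 and 13.7 in *dMPC1* mutants, against 1997 in the precise excision library. All 8 enterocyte markers searched (among them *nub* and *Myo31DF*) were above 0 in every library, as were all 7 progenitor markers (among them *esg* and *Dl*), so both cell classes of the labelled tissue were present. Of 20 egg chamber genes, 3 were above 0 in every library.

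Counted per length of exon, the 3 smooth septate junction genes were among the most abundant messages of the intestine, and the scaffold genes were far below them. *Ssk* had 10525 ± 764 normalized counts per kb of exon in *myo1A > dMPC1-RNAi* intestines (SD, n = 3), against 7763 ± 128 in *myo1A > mCherry-RNAi* intestines (SD, n = 2). On this scale *mesh* had 6086 ± 512 with *dMPC1* RNAi and 3471 ± 3.43 with *mCherry* RNAi, and *Tsp2A* had 4927 ± 448 and 2874 ± 126. These 3 genes lay at percentiles 98.1, 96.7 and 96.3 of the level per kb among 8738 genes, in the mean over all 8 libraries. On that scale *l(2)gl* was at percentile 87.9, *cora* at 85.9 and *scrib* at 71.5. *l(2)gl* had 959 ± 156 normalized counts per kb with *dMPC1* RNAi and 994 ± 17.7 with *mCherry* RNAi, and *cora* had 888 ± 49.1 and 592 ± 19.8. *scrib* had 322 ± 62.0 with *dMPC1* RNAi and 352 ± 5.96 with *mCherry* RNAi. *dlg1* was the lowest of the 7, with 73.3 ± 3.57 and 76.5 ± 3.77 normalized counts per kb, at percentile 33.3 of all genes.

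The order *Ssk*, *mesh*, *Tsp2A*, *l(2)gl*, *cora*, *scrib*, *dlg1* was the same in all 4 groups. Not every step was clear of the spread. *cora* and *l(2)gl* were within their spread of each other in *myo1A > dMPC1-RNAi* and *dMPC1* mutant intestines, and *mesh* came below *Tsp2A* in each group when the coding length was used in place of the exon length. The lengths behind these values differ widely. The merged exons of *scrib* and *dlg1* span 17197 and 11505 bases over 18 and 21 annotated transcripts, so this scale can understate the level of a gene of which only the shorter transcripts are made, whereas *Ssk* and *Tsp2A* span 898 and 1037 bases over 2 transcripts each. With the longest transcript as the length, *scrib* passed *cora* in *myo1A > mCherry-RNAi* intestines, at 641 and 606 normalized counts per kb. The genes lie on chromosome arms 3R (*mesh*, *scrib*), 3L (*Ssk*), X (*Tsp2A*, *dlg1*), 2R (*cora*) and 2L (*l(2)gl*), and none shares exon bases with another gene except *l(2)gl*, where 1.39% of the exon bases lie in annotated transposon copies.

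**Figure D1:**
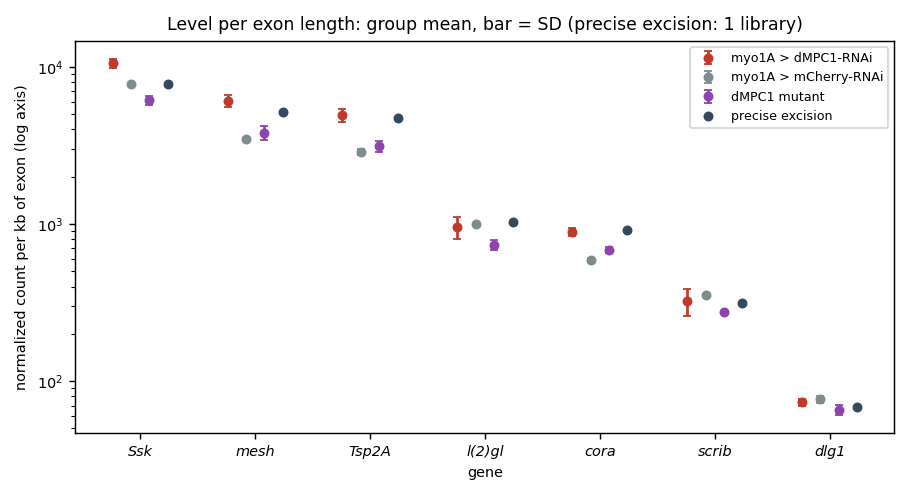
Normalized count per kb of exon (log axis) of the 7 genes in the 4 groups, as group means with SD bars (the precise excision group is 1 library and has no bar). *Ssk*, *mesh* and *Tsp2A* sit between 2874 and 10525 normalized counts per kb and *dlg1* at 76.5 or lower in every group.

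In *myo1A > dMPC1-RNAi* intestines the messages of *mesh* and *Tsp2A* rose, to 1.75-fold and 1.71-fold the level in *myo1A > mCherry-RNAi* intestines. *Ssk*, their partner in the smooth septate junction, and *cora* were 1.36-fold and 1.50-fold higher and passed a test without a fold minimum. *dlg1*, *scrib* and *l(2)gl* passed neither test in the main fit, but each passed the looser one in an alternative. A gene was called when its adjusted p in limma was at most 0.01 and its log2 fold change at least 0.6 in size, the thresholds of the study, and a looser test asked only for an adjusted p of at most 0.05. By the first test 2 of the 7 genes were called higher and 0 lower, beside 7.03% and 6.71% of the 8921 genes tested. By the looser test 4 of the 7 were higher and 0 lower, beside 15.6% and 17.9% of all genes. In these 4 genes every library with *dMPC1* RNAi was above both controls, which was so for 30.8% of all genes, and in 0 of the 7 was every one below both, which was so for 31.8%. The median log2 fold change of the 7 genes was 0.44, and that of all genes tested was -0.01. Scaling each library to its total reads in genes (total-read scaling) moved the median of all genes up by 0.34 and gave 1724 genes called higher and 272 lower, beside 627 and 599. Relative to that median the log2 fold changes were 0.81 for *mesh*, 0.44 for *Ssk*, 0.78 for *Tsp2A*, 0.59 for *cora*, -0.05 for *dlg1*, -0.14 for *scrib* and -0.06 for *l(2)gl*.

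*mesh* encodes a large transmembrane protein that organises the smooth septate junction. It had 34474, 29397 and 30616 normalized counts in *myo1A > dMPC1-RNAi* replicates 1, 2 and 3, against 17975 and 17949.6 in *myo1A > mCherry-RNAi* replicates 1 and 3. All 3 libraries with *dMPC1* RNAi lay far above both controls, which were almost equal. The means were 31496 ± 2650.4 (SD, n = 3) and 17962 ± 17.7 (SD, n = 2), and the log2 fold change was 0.81 ± 0.11 (SE) with an adjusted p of 0.00232 in limma and a 95% interval of 0.55 to 1.06. The call was lost without *myo1A > dMPC1-RNAi* replicate 3 (0.83, adjusted p = 0.0115), without *myo1A > mCherry-RNAi* replicate 1 (0.81, adjusted p = 0.0412) and without replicate 3 of that control (0.81, adjusted p = 0.0351), with the estimate almost in place. Over all 15 alternatives its adjusted p ran between 2.46e-11 and 0.0412.

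*Tsp2A*, a tetraspanin of the smooth septate junction, had 5154, 4623 and 5549 normalized counts in the 3 *myo1A > dMPC1-RNAi* libraries, against 2888 and 3073 in both controls. The groups did not overlap, and the lowest library with *dMPC1* RNAi was well above the highest control. The means were 5109 ± 465 (SD, n = 3) and 2981 ± 131 (SD, n = 2), a log2 fold change of 0.77 ± 0.10 (SE) with an adjusted p of 0.00225 in limma and a 95% interval of 0.53 to 1.02. Without *myo1A > mCherry-RNAi* replicate 1 the estimate was 0.73 (adjusted p = 0.0405), and without replicate 3 of that control it was 0.82 (adjusted p = 0.0258). Both lose the call, and the adjusted p ran between 5.82e-09 and 0.0405 over the 15 alternatives.

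*Ssk*, a small protein that crosses the membrane several times, had 8780.4, 9422 and 10151 normalized counts with *dMPC1* RNAi, against 6890.2 and 7053 with *mCherry* RNAi. The groups did not overlap, but the gap between them was smaller than for its 2 partners. The means were 9451 ± 686 (SD, n = 3) and 6972 ± 115 (SD, n = 2), and the log2 fold change of 0.44 ± 0.09 (SE), with a 95% interval of 0.21 to 0.66, passed the looser test and not the stricter (adjusted p = 0.0134, limma). The looser test was not passed without *myo1A > mCherry-RNAi* replicate 1 (0.42, adjusted p = 0.129) or replicate 3 (0.45, adjusted p = 0.0986), and the adjusted p ran between 0.000335 and 0.129 over the 15 alternatives.

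*cora* had 5706, 5151 and 5247 normalized counts with *dMPC1* RNAi, against 3492 and 3661 with *mCherry* RNAi. Again all 3 libraries of the RNAi group were above both controls. The group means were 5368 ± 297 and 3576 ± 119 (SD, n = 3 and n = 2). The estimate on the log2 scale, 0.58 ± 0.08 (SE), with a 95% interval of 0.38 to 0.79, was just inside the fold minimum, although its adjusted p in limma was 0.00334. With edgeR on recovered reads *cora* was called (0.61, adjusted p = 0.00456), and without *myo1A > mCherry-RNAi* replicate 1 it did not pass the looser test (0.55, adjusted p = 0.0565). Over its 15 alternatives the adjusted p ran between 2.3e-07 and 0.0565.

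The Scribble module genes gave no such difference. *dlg1* encodes a membrane-associated guanylate kinase scaffold found at septate junctions and had 883, 847 and 801 normalized counts with *dMPC1* RNAi, against 849 and 911 with *mCherry* RNAi. The groups overlapped, and the log2 fold change was -0.06 with a 95% interval of -0.27 to 0.15 (adjusted p = 0.613, limma). This interval lies inside the fold minimum on both sides. With total-read scaling *dlg1* passed the looser test as higher (0.28, adjusted p = 0.0428, limma), where the median of all genes was 0.34.

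*scrib*, a scaffold with leucine-rich repeats and PDZ domains, had 6757, 4844 and 4986 normalized counts with *dMPC1* RNAi, against 6121 and 5976 with *mCherry* RNAi. *l(2)gl*, a WD40-repeat protein that restrains the apical kinase aPKC, had 6811, 5356 and 5062 with *dMPC1* RNAi, against 6027 and 5877 with *mCherry* RNAi. In both genes replicate 1 of *myo1A > dMPC1-RNAi* was above the controls and replicates 2 and 3 were below them, so the groups overlapped. The log2 fold change of *scrib* was -0.15 (95% interval -0.51 to 0.22, adjusted p = 0.491) and that of *l(2)gl* was -0.06 (95% interval -0.39 to 0.26, adjusted p = 0.747) in limma. Without *myo1A > dMPC1-RNAi* replicate 1 the estimates were -0.30 for *scrib* (adjusted p = 0.00456, below the fold minimum) and -0.19 for *l(2)gl* (adjusted p = 0.0356), and over the 15 alternatives the adjusted p ran between 0.00456 and 0.816 for *scrib* and between 0.0356 and 0.938 for *l(2)gl*. The same library also had the highest sum of the 20 egg chamber genes, 251 normalized counts, against 77.8 and 95.6 in replicates 2 and 3, while the controls with *mCherry* RNAi had 62.5 and 94.6, and their part in the result was not tested.

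**Figure D2:**
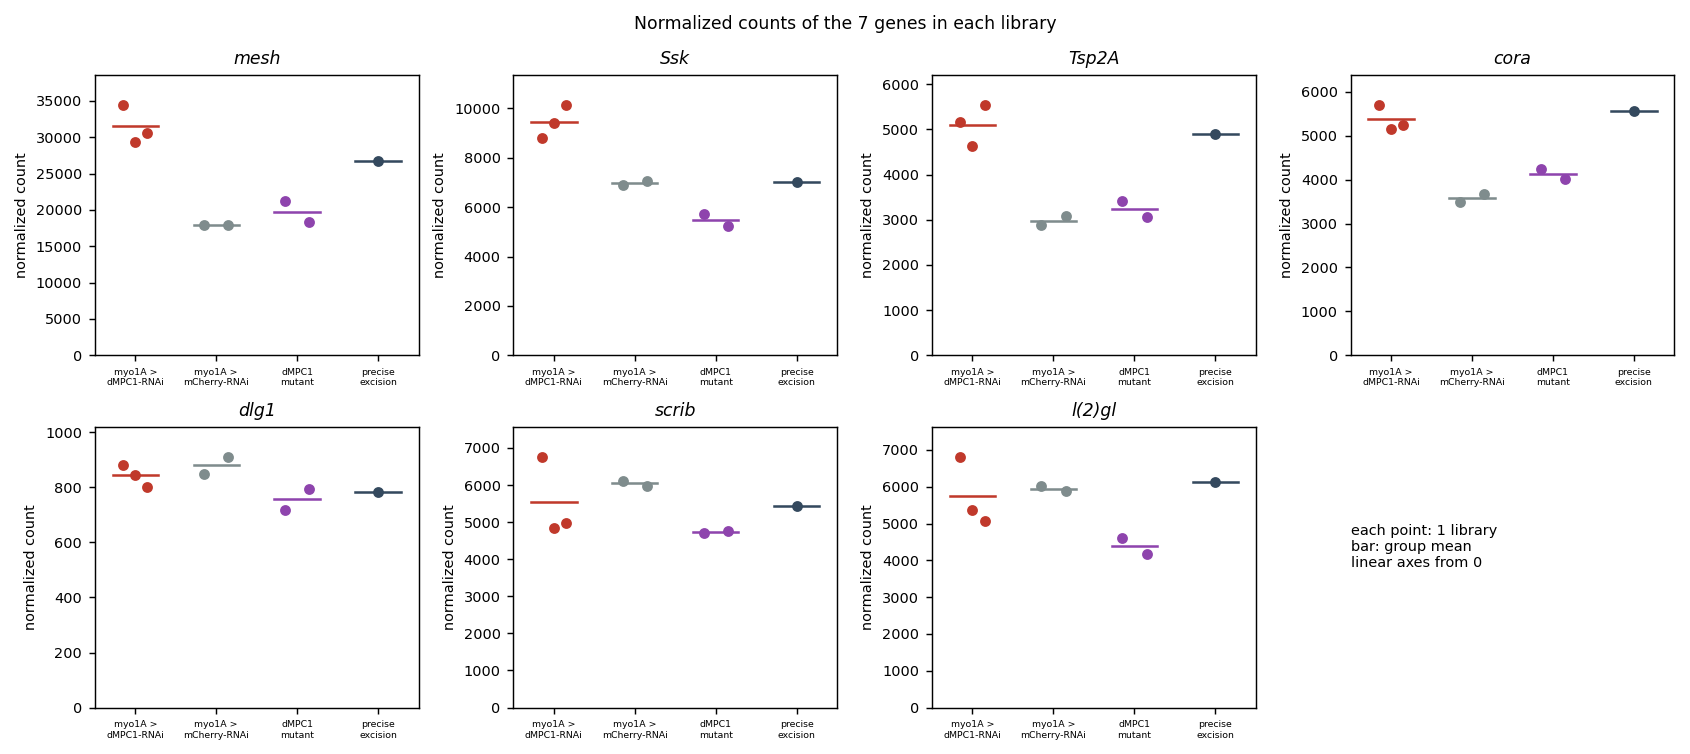
Normalized counts of the 7 genes (linear axes from 0), with a point for each library and a bar at each group mean. The 3 *myo1A > dMPC1-RNAi* libraries lie above both *myo1A > mCherry-RNAi* libraries for *mesh*, *Ssk*, *Tsp2A* and *cora*, and the groups overlap for *dlg1*, *scrib* and *l(2)gl*.

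Setting genes against each other inside a library removes its scaling factor from the comparison. The mean log2 level of *mesh*, *Ssk* and *Tsp2A* minus that of *dlg1*, *scrib* and *l(2)gl* was 1.75, 1.95 and 2.14 in the *myo1A > dMPC1-RNAi* libraries, against 1.17 and 1.20 in their controls with *mCherry* RNAi. The groups did not overlap, and their means differed by 0.76. For *cora* minus the same 3 scaffold genes the values were 0.73, 0.88 and 0.95 with *dMPC1* RNAi, against 0.15 and 0.21 with *mCherry* RNAi. *mesh* and *Tsp2A* kept nearly the same distance in both groups, a mean log2 difference of 2.62 with *dMPC1* RNAi and 2.59 with *mCherry* RNAi. The distance of *mesh* from *Ssk* was wider with *dMPC1* RNAi, at 1.97, 1.64 and 1.59, against 1.38 and 1.35 with *mCherry* RNAi. These within-library values are descriptions and carry no test.

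The balance of cell type markers also differed between the 2 RNAi groups. The 7 progenitor markers summed to 1971, 1902 and 1867 normalized counts with *dMPC1* RNAi, against 861 and 922 with *mCherry* RNAi, and 4 of the 7 (*Dl*, *Sox21a*, *Sox100B* and *N*) rose. The 8 enterocyte markers summed to 487215, 543745 and 571431 normalized counts with *dMPC1* RNAi, against 906984 and 874216 with *mCherry* RNAi, and 1 of the 8 (*betaTry*, a trypsin) fell. This sum follows its most abundant genes. *betaTry* alone held 0.52%, 0.49% and 0.48% of reads with *dMPC1* RNAi, against 1.36% and 1.29%, and the whole list 4.07%, 4.41% and 4.68%, against 5.79% and 5.73%. The median log2 fold change of the 8 was -0.25, and by the looser test 3 were lower and 1 higher. The 8 enteroendocrine markers summed to 5674, 5833 and 6222 normalized counts with *dMPC1* RNAi, against 4337 and 4401 with *mCherry* RNAi, and 2 of the 8 (*AstA* and *CCHa1*) rose. None of these 3 lists had a marker at 0 in any library. The 2 fat body markers found, of which *Rfabg* makes up nearly the whole sum, had 1084, 863 and 1117 with *dMPC1* RNAi, against 4505 and 3299.9 with *mCherry* RNAi, and *Rfabg* fell. Of all genes tested 7.03% rose and 6.71% fell. The progenitor and enteroendocrine sums rose along with *mesh*, *Tsp2A*, *Ssk* and *cora*, and the enterocyte and fat body sums fell. The part of these lists in the result was not tested.

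**Figure D3:**
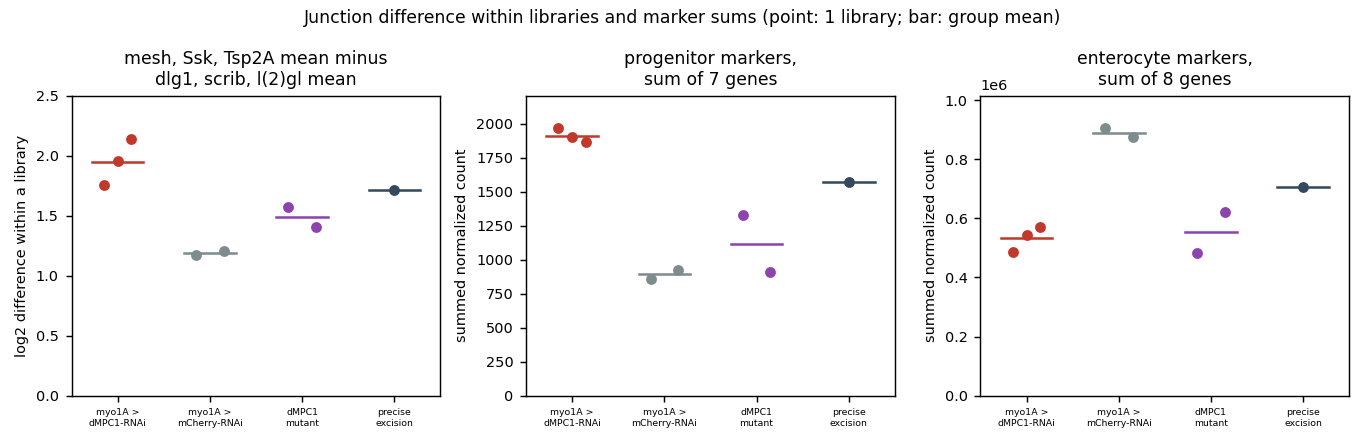
Left, the mean log2 level of *mesh*, *Ssk* and *Tsp2A* minus that of *dlg1*, *scrib* and *l(2)gl* in each library; middle and right, the summed normalized counts of 7 progenitor and 8 enterocyte markers (point, 1 library; bar, group mean; linear axes from 0). The *myo1A > dMPC1-RNAi* libraries are at 1.75 to 2.14 and the *myo1A > mCherry-RNAi* libraries at 1.17 and 1.20, and the *myo1A > dMPC1-RNAi* libraries are also above these controls in progenitor markers and below them in enterocyte markers.

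In *dMPC1* mutants, which carry the deletions in every cell, no gene of the 7 was called in either direction. Both mutant libraries were below the precise excision library for 6 of the 7 genes, the exception being *dlg1*, and *Tsp2A* fell by the looser test. Across all 8794 genes tested 1.31% were called higher and 2.39% lower in the mutants, and by the looser test 0 of the 7 genes were higher and 1 was lower, beside 3.79% and 5.58% of all genes. Both mutant libraries were below the control for 38.9% of all genes and above it for 41.2%. The control is 1 library and is assumed to vary like the mutants, and the fit has 1 residual degree of freedom.

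*Tsp2A* had 3407 and 3055 normalized counts in mutant replicates 1 and 2, against 4905 in the precise excision library. Both mutants lay well below the control, with a log2 fold change of -0.60 (95% interval -0.94 to -0.27, adjusted p = 0.0424, limma). Leaving out a mutant library was run in a fit that also took in the RNAi libraries, and it leaves 1 mutant library. The estimate was -0.68 without mutant replicate 1 and -0.53 without replicate 2, and the looser test was passed in neither. The adjusted p ran between 0.0385 and 0.231 over 11 alternatives. *mesh* had 21158 and 18315 in the mutants, against 26735 in the control, and a log2 fold change of -0.44 (95% interval -0.90 to 0.02, adjusted p = 0.228, limma). For *mesh* the 2 mutant libraries lay further apart than for any other of the 3 smooth septate junction genes. *Ssk* had 5739 and 5243 in the mutants, against 7024 in the control, with a log2 fold change of -0.36 (95% interval -0.70 to -0.01, adjusted p = 0.200, limma). *cora* had 4238 and 4012 in the mutants, against 5559.7 in the control, with a log2 fold change of -0.43 (95% interval -0.76 to -0.10, adjusted p = 0.113, limma).

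Among the scaffold genes *l(2)gl* had the widest gap in this experiment, with 4610.3 and 4164 normalized counts in the mutants, against 6135 in the control. Its log2 fold change was -0.49 (95% interval -0.83 to -0.14, adjusted p = 0.0911, limma). *scrib* had 4711 and 4754 in the mutants, which were almost equal, against 5441 in the control, and a log2 fold change of -0.20 (95% interval -0.53 to 0.12, adjusted p = 0.440, limma). *dlg1* had 719 and 794 in the mutants, on either side of the control at 784, and a log2 fold change of -0.05 (95% interval -0.38 to 0.27, adjusted p = 0.863, limma). Inside a library the smooth septate junction genes stood 1.58 and 1.41 above the scaffold genes on the log2 scale in the mutants, against 1.71 in the control, a difference of -0.22, against 0.76 between the 2 RNAi groups. The visceral muscle markers summed to 15389 and 15244 normalized counts in the mutants, against 27945 in the control, and the progenitor markers to 1326 and 910.1, against 1569. The part of these lists in the mutant values was not tested.

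The 2 effects were then set against each other in 1 fit of all 8 libraries, as the log2 fold change of *dMPC1* RNAi over *mCherry* RNAi minus that of *dMPC1* mutants over precise excision. *Tsp2A*, *mesh* and *cora* were higher in this difference at an adjusted p of at most 0.01, which 4.78% of the 8916 genes tested were, and 0 of the 7 genes were lower, beside 3.94% of all genes. *Tsp2A* had the largest value of the 7, 1.38 (95% interval 0.99 to 1.77, adjusted p = 0.00219, limma). *mesh* had 1.25 (95% interval 0.81 to 1.69, adjusted p = 0.00456) and *cora* 1.02 (95% interval 0.70 to 1.34, adjusted p = 0.00319, limma). In each of the 3 genes the RNAi effect was positive and the mutant effect negative. A positive difference was not particular to them. Of the 7 progenitor markers 4 (*Dl*, *Sox21a*, *Sox100B* and *N*) were also higher in it and 0 lower, with a median of 1.69. Other junction genes are given below.

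*Ssk* had a difference of 0.79 and an adjusted p of 0.0108, just outside the threshold. At an adjusted p of at most 0.05, 4 of the 7 genes were higher and 0 lower in this difference, beside 10.7% and 10.4% of all genes. The 95% interval of *Ssk* was 0.43 to 1.15, and it passed with DESeq2 on recovered reads (0.80, adjusted p = 0.00123), with total-read scaling (0.96, adjusted p = 0.00795) and without *myo1A > dMPC1-RNAi* replicate 1 (0.84, adjusted p = 0.00216), over a range of 0.00123 to 0.0551 in 15 alternatives. *l(2)gl* had 0.42 (95% interval -0.09 to 0.93, adjusted p = 0.214), *scrib* 0.06 (95% interval -0.49 to 0.60, adjusted p = 0.897) and *dlg1* -0.01 (95% interval -0.35 to 0.33, adjusted p = 0.980) in limma. The intervals of *scrib* and *l(2)gl* still hold differences as large as the fold minimum. The calls rest on few controls. Without *myo1A > mCherry-RNAi* replicate 1 or replicate 3, 0 of the 7 genes passed, with *mesh* at 1.25 and 1.25, *Tsp2A* at 1.33 and 1.42 and *cora* at 0.98 and 1.05. Without mutant replicate 2, 1 of the 7 passed, and *mesh* (1.14) and *cora* (0.98) did not. Without *myo1A > dMPC1-RNAi* replicate 3, *mesh* (1.27) did not pass.

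**Figure D4:**
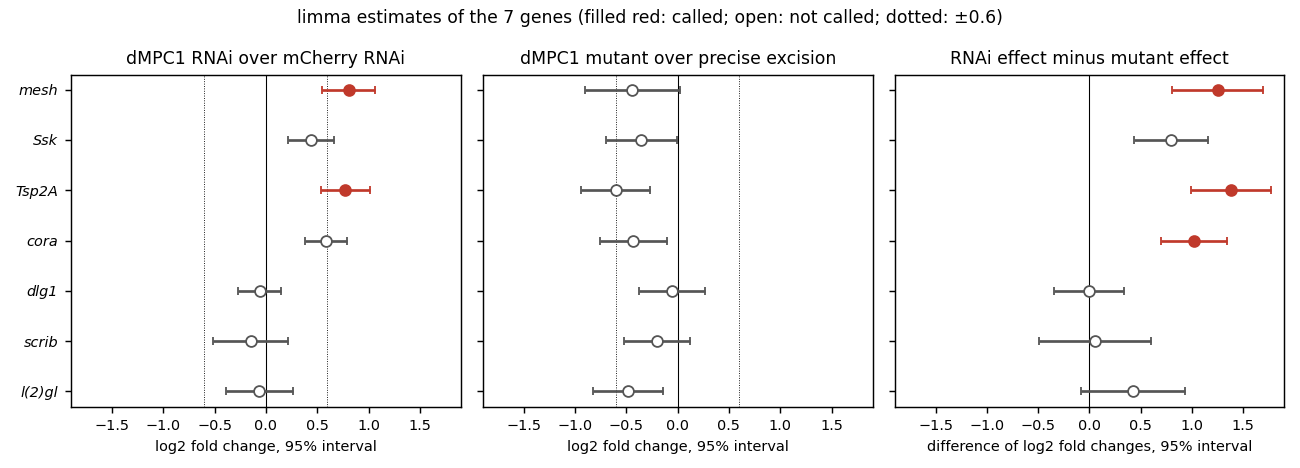
limma estimates with 95% intervals for the 7 genes on the log2 scale: left, *dMPC1* RNAi over *mCherry* RNAi; middle, *dMPC1* mutant over precise excision; right, the difference of the 2 effects (filled, called; open, not called; dotted lines, the fold minimum of 0.6). *mesh* and *Tsp2A* are called on the left, no gene in the middle, and *mesh*, *Tsp2A* and *cora* on the right.

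The 2 control genotypes did not start from the same levels. *Tsp2A* had 4905 normalized counts in the precise excision library, against 2888 and 3073 in *myo1A > mCherry-RNAi* intestines, a log2 difference of 0.72 (adjusted p = 0.0116, limma). *cora* had 5559.7, against 3492 and 3661, a difference of 0.64 that was called (adjusted p = 0.00833), and *mesh* had 26735, against 17975 and 17949.6, a difference of 0.57 (adjusted p = 0.0391). *Ssk* differed by 0.01 (adjusted p = 0.967), and *dlg1*, *scrib* and *l(2)gl* by -0.16, -0.15 and 0.04 (adjusted p of 0.400, 0.641 and 0.899). Of the 7 genes 1 was called higher and 0 lower, beside 3.28% and 2.97% of the 8916 genes, and by the looser test 3 were higher and 0 lower, beside 8.62% and 8.6%. For *mesh*, *Tsp2A* and *cora* the precise excision library was thus nearer to the *myo1A > dMPC1-RNAi* libraries than to the *myo1A > mCherry-RNAi* ones. The progenitor markers summed to 1569 normalized counts in the precise excision library, against 861 and 922 with *mCherry* RNAi. Driver, transgenes, age and experiment differ between these controls and cannot be told apart. Temperature may differ too. In its proliferation counts the study switched RNAi on by moving adults to a higher temperature than that of its stocks, and its RNA-seq methods give no temperature.

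Across the 8 libraries *mesh* and *Tsp2A* had patterns close to each other. Likeness was measured as the root mean square difference of log2 values after each gene was centred on its mean, which is a description and not a test. By this measure *mesh* was rank 3 of 8915 genes in likeness to *Tsp2A*, and *Tsp2A* was rank 7 in likeness to *mesh*, at a distance of 0.095. The 2 genes nearest to *mesh* were *CG3719* (0.034) and *CG15347* (0.086), which were also the 2 nearest to *Tsp2A* (0.085 and 0.076). *cora* was rank 32 in likeness to *mesh* and rank 24 to *Tsp2A*. *Ssk* stood further off, at rank 333 to *mesh* and rank 304 to *Tsp2A*, and the genes nearest to it were *Sec15*, a subunit of the exocyst that tethers secretory vesicles (0.051), and *cN-IIIB* (0.064).

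The scaffold genes had other neighbours. *scrib* was rank 26 in likeness to *l(2)gl*, at a distance of 0.11, and the genes nearest to *scrib* were *pum* (0.046) and *Imp* (0.050), which both encode RNA-binding proteins. The gene nearest to *l(2)gl* was *cno* (0.058), the fly Afadin, which links adherens junctions to actin, and *CG42684* followed (0.065). *dlg1* was nearest to the kinase gene *Rok* (0.047) and to *Lis-1*, a dynein regulator (0.048). *cora* was nearest to *CG18480* (0.049) and *Sh3beta* (0.054). In likeness to *mesh*, *dlg1* was at rank 2570 of 8915, *scrib* at rank 2972 and *l(2)gl* at rank 2020.

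Other junction, polarity and adhesion genes were read from lists that together hold 58 genes besides the 7. Genes of the Hippo pathway were listed apart and are not among the 58. With *dMPC1* RNAi 5 of the 58 rose and 4 fell, beside 7.03% and 6.71% of all genes, with a median log2 fold change of 0.13, beside -0.01 over all genes. By the looser test 13 were higher and 8 lower, beside 15.6% and 17.9% of all genes. With total-read scaling 15 of the 58 were called higher and 1 lower, with a median of 0.47, beside 0.34 over all genes, and *Atpalpha*, *if* and *Col4a1* were no longer called. Without *myo1A > mCherry-RNAi* replicate 1 or replicate 3, 0 of the 58 were called in either direction, and the counts were 2 higher and 2 lower without *myo1A > dMPC1-RNAi* replicate 2, 2 and 1 without replicate 3, and 7 and 5 without replicate 1. In *dMPC1* mutants 1 of the 58 rose and 3 fell, beside 1.31% and 2.39% of all genes, with a median of -0.08, beside 0.01 over all genes. In the difference of the 2 effects 7 of the 58 were higher and 1 lower at an adjusted p of at most 0.01 in limma, beside 4.78% and 3.94% of all genes. At an adjusted p of at most 0.05, 19 were higher and 3 lower, beside 10.7% and 10.4%. The median difference of the 58 was 0.26, beside -0.01 over all genes.

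The fourth smooth septate junction gene in the tables is *hoka* (listed as *CG13704*), named here after its values were seen. It encodes a small membrane protein that the junction needs. *hoka* had 4540.2, 4047 and 4607 normalized counts with *dMPC1* RNAi, against 2962 and 3223 with *mCherry* RNAi, and a log2 fold change of 0.51 (adjusted p = 0.00812, limma) under the fold minimum. All 4 smooth septate junction genes were thus higher by the looser test, and 2 of the 4 were called, beside 15.6% and 7.03% of all genes. Of these, *mesh*, *Ssk* and *Tsp2A* were already counted among the 7. In mutants *hoka* had 3098 and 2848, against 4058, a log2 fold change of -0.45 (adjusted p = 0.0954, limma), and the difference of the effects was 0.96 (adjusted p = 0.00555).

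Among 19 genes of the pleated septate junction, the type found in ectodermal epithelia and glia, 2 rose and 1 fell with *dMPC1* RNAi. Over all genes the shares were 7.03% and 6.71%. The median log2 fold change of the 19 genes was 0.08. The 2 that rose belong to the corners where 3 cells meet. *Gli* (Gliotactin) had 2791, 2343 and 2548 normalized counts with *dMPC1* RNAi, against 1636 and 1625 with *mCherry* RNAi (log2 fold change 0.65, adjusted p = 0.0036). *M6*, a tetraspan membrane protein, had 688, 796 and 795, against 454 and 423 (0.79, adjusted p = 0.0022, limma), although 23.3% of its exon bases overlap *SAK* on the other strand and reads of the 2 cannot be told apart if strand was not used. *Atpalpha*, the catalytic subunit of the sodium pump, fell to 14158, 15763 and 13878 normalized counts with *dMPC1* RNAi, against 24985 and 22966 (-0.72, adjusted p = 0.0031, limma). *nrv2*, a beta subunit of the same pump, rose in mutants to 588 and 693 normalized counts, against 219.5 in the control (1.54, adjusted p = 0.00154, limma), a call that held in 5 of 11 alternatives. With *dMPC1* RNAi *nrv2* had 174, 117 and 101, against 142 and 138, and was not called. The calls with *dMPC1* RNAi held in 11 of 15 alternatives for *Gli*, 9 for *M6* and 11 for *Atpalpha*.

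The other 2 scaffold genes listed beside *cora* and the Scribble module, *yrt* and *vari*, were not called in either experiment, nor was any of 11 apical polarity genes or 10 Hippo pathway genes. Over all genes 7.03% rose and 6.71% fell with *dMPC1* RNAi, and 1.31% and 2.39% in mutants. By the looser test 2 apical genes and 1 Hippo gene were lower with *dMPC1* RNAi, beside 17.9% of all genes, and 1 Hippo gene in mutants, beside 5.58%. With total-read scaling 3 Hippo genes (*hpo*, *sav* and *Mer*) were called higher with *dMPC1* RNAi. With *dMPC1* RNAi the median log2 fold change was -0.06 over the 6 basolateral scaffold genes, 0.12 over the apical list and 0.12 over the Hippo list. Of 9 adherens junction genes 2 rose with *dMPC1* RNAi and 0 fell, beside 7.03% and 6.71% of all genes, with a median of 0.30. These were *shg* and *p120ctn*. *shg*, which encodes E-cadherin, had 1365, 1311 and 1273 normalized counts against 839.5 and 828 (0.66, adjusted p = 0.00157, limma). *p120ctn*, which binds the tail of E-cadherin, had 734, 879 and 783 against 464 and 477 (0.76, adjusted p = 0.00252, limma). The call of *shg* held in 10 of 15 alternatives and that of *p120ctn* in 9.

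Of 16 integrin and basement membrane genes 1 rose and 3 fell with *dMPC1* RNAi, beside 7.03% and 6.71% of all genes. *mys*, the main beta integrin, had 5179.5, 4765 and 4752 normalized counts with *dMPC1* RNAi, against 2913 and 3109 with *mCherry* RNAi (0.70, adjusted p = 0.00165, limma). The alpha integrin *if* instead had 365, 424 and 364, against 589.6 and 619 (-0.65, adjusted p = 0.00477, limma). The call of *mys* held in 12 of 15 alternatives and that of *if* in 8. The 2 collagen IV chains fell in both experiments. The call of *vkg* held in 13 of 15 alternatives with *dMPC1* RNAi and in 9 of 11 in mutants, and that of *Col4a1* in 7 of 15 and 7 of 11. *vkg* had 116, 96.0 and 114 normalized counts with *dMPC1* RNAi, against 229 and 259.9 (-1.17, adjusted p = 0.00156), and 238 and 289 in mutants, against 950.1 in the precise excision library (-1.85, adjusted p = 0.000783, limma). *Col4a1* (listed as *Cg25C*) had 177, 157 and 176 with *dMPC1* RNAi, against 290.4 and 427 (-1.05, adjusted p = 0.00551), and 400.2 and 460.2 in mutants, against 1499.9 (-1.80, adjusted p = 0.000535, limma). *LanA*, a laminin alpha chain, fell in mutants to 768 and 659 normalized counts, against 1356 (-0.93, adjusted p = 0.0095, limma), which held in 4 of 11 alternatives. The 5 hemocyte markers found summed to 162, 158 and 144 normalized counts with *dMPC1* RNAi, against 185 and 294 with *mCherry* RNAi, and to 322 and 503 in mutants, against 971 in the control. The fat body markers, given above for the RNAi groups, summed to 822 and 914 in mutants, against 4342 in the control. *Rfabg*, the apolipoprotein that carries most of that sum, fell in both experiments, with log2 fold changes of -1.93 with *dMPC1* RNAi and -2.44 in mutants. The other fat body marker, *Lsp2*, was called higher in mutants, and it did not pass the filter on low values in the RNAi experiment. The part of these lists in the collagen values was not tested.

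**Figure D5:**
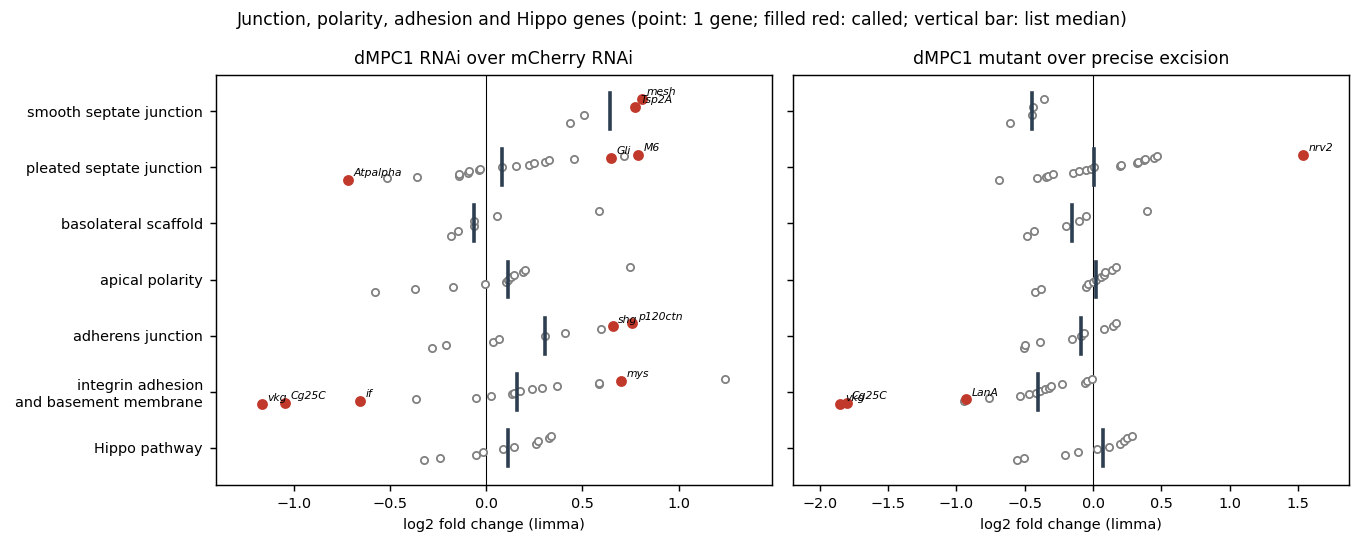
log2 fold changes (limma) of the genes of 7 lists with *dMPC1* RNAi over *mCherry* RNAi (left) and in *dMPC1* mutants over precise excision (right), with a point for each gene, filled and named where called, and a vertical bar at each list's median. The smooth septate junction list has a median of 0.64 on the left, the highest of the 7 lists, and -0.45 on the right.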

How the data were processed

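RNA from whole intestines was sequenced as single reads. Per the labels and the methods of the study, the authors aligned the reads to the dm3 assembly with Novoalign and used USeq and DESeq. The sources used here do not state versions, the annotation release or the use of strand. The deposited signal is a normalized count, for which the authors scaled the reads of each gene by a size factor. Their tables also hold their own fold changes and adjusted p-values, which were not used. Of 12 labelled libraries 8 were analysed here. Dividing each value by that of 1 read gave whole reads for 100% of values in every library, within 0.001 of a read, between 7362983 and 21918521 per library. Replicates differed by more than sampling noise (chi-square per degree of freedom of at least 8.78), and p-values measure only the spread between these samples. *myo1A > dMPC1-RNAi* replicate 1 stood furthest from its group, at 48.6 from replicate 2 and 58.6 from replicate 3, which were at 12.0 from each other. Without it 1935 genes were called in the RNAi experiment, beside 1226 with it.

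limma 3.58.1 in R 4.3.3, with a mean-variance trend, was fitted to log2(normalized count + 1) of each gene that averaged 10 or more normalized counts over the libraries of the fit. All fold changes are on that scale and are too small for low genes. p-values were adjusted over all genes tested by the Benjamini-Hochberg method. On the recovered reads, edgeR 4.0.16 (quasi-likelihood) called 1158 genes in the RNAi experiment, and DESeq2 1.42.0 called 1467. The RNAi fit and the mutant fit, but not the fit of the difference, were also run on simulated counts. Those counts had the same spread setting for all genes and libraries, so they do not show how the calls hold under the uneven spread of these replicates. Lengths, exon overlaps and chromosome arms came from an Ensembl BDGP6 annotation, which matched 9791 of 9981 IDs. The reads were aligned to dm3, so the overlaps may differ from those in the annotation that the authors used. No coordinates are given here.

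The 7 genes and all lists were chosen with earlier results of these data known. Named besides the 7 were up to 4 called genes per list and experiment with the smallest p, and the 2 genes most like each of the 7. *aka* and *Itgbn* of the lists, and 4 markers, were not found by name in the tables.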

Additional observations from a re-analysis of the deposited data

Results flagged for a closer look

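The effect of *dMPC1* RNAi in enterocytes and the effect of the *dMPC1* deletion differed for 3 of the 7 genes when the difference was tested in 1 limma fit of all 8 libraries. As the log2 RNAi effect minus the log2 mutant effect, *Tsp2A* differed by 1.38 (adjusted p = 0.00219), *mesh* by 1.25 (adjusted p = 0.00456) and *cora* by 1.02 (adjusted p = 0.00319), beside 4.78% of all genes higher in this difference at an adjusted p of at most 0.01. For each of them all 3 *myo1A > dMPC1-RNAi* libraries were above both *myo1A > mCherry-RNAi* libraries, which was so for 30.8% of all genes, and both mutant libraries were below the precise excision library, which was so for 38.9%. The mutant effect has a control arm of 1 precise excision library, and that library was itself higher than *mCherry* RNAi for these genes, by 0.72 for *Tsp2A*, 0.64 for *cora* and 0.57 for *mesh*, so the difference rests on that library too. Of the 58 other junction, polarity and adhesion genes 7 were higher in the difference and 1 lower by the same rule, as were 4 of the 7 progenitor markers, with 0 lower.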

How the results depend on the processing

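The direction of *mesh*, *Ssk*, *Tsp2A* and *cora* held in all 3 comparisons under every alternative run, and leaving out a library mainly changed the significance. With *dMPC1* RNAi the number of the 7 genes called higher was 4 instead of 2 with total-read scaling and 0 to 2 with a library left out. In the difference of the effects it was 1 instead of 3 with the replicate block and 0 to 4 with a library left out. The replicate number was taken as a block although it pairs only 2 RNAi libraries with controls, and same-numbered libraries did not deviate together (correlations of -0.23 and -0.16 over genes). Of all genes tested, 1226 were called with *dMPC1* RNAi, 1996 with total-read scaling, 739 with the replicate block in the fit of all libraries, 839 with the block in the RNAi libraries alone, and 187 to 1935 with a library left out. In the mutants 325 were called, 132 by edgeR, 518 with total-read scaling (304 higher and 214 lower, against 115 and 210), 70 with the replicate block, 199 in the fit of all libraries and 85 to 106 with a mutant library left out. Without a filter on low values limma called 0 genes in the mutants, with 1782 at an unadjusted p under 0.05, and DESeq2 with the filter called 395. In the difference 777 were called, 479 without a filter, 313 with the replicate block and 121 to 1633 with a library left out, and total-read scaling gave 513 higher and 223 lower, against 426 and 351. The block changed no other direction than those given here. Among the genes named, signs turned for these estimates, which were near 0 in the main fit. With *dMPC1* RNAi, total-read scaling gave 0.28 for *dlg1*, 0.20 for *scrib*, 0.28 for *l(2)gl* and 0.20 for *nrv2*, and with a library left out *l(2)gl* ran between -0.19 and 0.021 and *nrv2* between -0.36 and 0.024. In the mutants, total-read scaling gave 0.12 for *dlg1*, 0.078 for *Gli* and 0.13 for *if*, the replicate block gave 0.017 for *dlg1* and 0.034 for *if*, and with a library left out *dlg1* ran between -0.13 and 0.017 and *if* between -0.13 and 0.034. In the difference *dlg1* had 0.012 with edgeR, 0.00034 with DESeq2 and 0.16 with total-read scaling, and with a library left out it ran between -0.079 and 0.064, and *scrib* between -0.098 and 0.14. The cause of these changes was not tested, beyond the fewer libraries or other genes in each fit. Leaving out the precise excision library was not run, since no contrast is left without it. Where a group was left with 1 library, that library was assumed to vary like the others. Mutant libraries were left out in fits of all libraries, so these fits differ from the main mutant fit in that way too. The genes had between 464 and 39812 reads per library. Over all genes replicates differed by more than sampling noise, but in some groups of these genes the spread was no larger than counting error. For *mesh* with *mCherry* RNAi the SD was 17.7 normalized counts, from libraries with 16401 and 17265 reads. The few libraries set the limit.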
